A study of Mus musculus with 24 samples.

Results

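The cytosolic ribosomal protein genes are described here in mouse kidneys taken after experimentally induced myocardial infarction (MI). They were chosen by name alone: a gene belonged to the set when its symbol was Rps or Rpl with a number and at most a short suffix, or was Rpsa, Rplp0, Rplp1 or Rplp2. The ubiquitin fusion gene Rps27a, the Rps6k kinases and genes whose symbols end in -ps (processed pseudogenes, hereafter pseudogene rows) were left out. The rule found 88 of 56941 genes in the table, 35 of the small and 53 of the large ribosomal subunit, on 19 chromosomes, with at most 15 on one of them. In the GENCODE M21 annotation 82 of the 88 are protein-coding. The other 6 (Rpl32l, Rpl6l, Rps12l1, Rps3a2, Rps3a3 and Rps4l) are typed there as processed pseudogenes although their symbols lack -ps.

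All mice were male wild-type C57BL/6J animals aged 8 to 11 weeks. MI was induced by tying off a coronary artery, the left anterior descending (LAD), for good, and kidneys were taken 5d or 28d later. Sham mice had the same surgery without ligation and were killed at 5d, so the comparison of 28d post-MI with sham also differs in the time since surgery and in age. The labels list 24 kidneys, of which 22 could be matched to a column of the table: 8 sham, 8 kidneys 5d post-MI and 6 kidneys 28d post-MI. RNA was counted by MACE-Seq, a method that sequences the 3′ ends of transcripts and uses unique molecular identifiers to remove PCR duplicates.

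Each kidney had between 2280618 and 3786275 counts. Markers of the proximal tubule, the main cell type of the renal cortex, summed to between 7295 and 10492 counts per 1000000 (CPM) in every kidney. Markers of the adrenal cortex, a gland that sits on the kidney, summed to 976 CPM in sham kidney 2, the highest value, and to 85.2 CPM at most in kidneys 5d post-MI, against 3.25 CPM at most 28d post-MI. Red blood cell genes differed between the groups and are given beside the results they moved with. In bulk tissue, fewer cells of a type and less RNA per cell cannot be told apart.

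Ribosomal proteins and ribosomal RNA together form the small subunit, which reads the mRNA, and the large subunit, which joins amino acids. Most of the proteins are present once in each ribosome, while the acidic stalk proteins Rplp1 and Rplp2 are present in more copies. Their mRNAs typically start with a 5′ terminal oligopyrimidine (TOP) tract, a C followed by a run of C or T, through which mTORC1 and the RNA-binding protein Larp1 control their translation and stability. Ribosomal protein mRNAs are also a frequent source of processed pseudogenes, intronless copies inserted elsewhere in the genome. A few members have a paralogue with a more restricted expression, such as Rpl3l in muscle and heart and Rpl10l and Rpl39l in testis.

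The start of transcription is the feature by which TOP mRNAs are recognised, and the windows below show it for Rps6 and for the genes with the lowest p-values in the comparisons with sham. Each window runs from 10 bases before to 19 bases after the first base annotated by RefSeq (GRCm38.p6), on the strand of the gene. Capitals mark the first run of a C followed by at least 4 pyrimidines that begins within 10 bases of that start, searched on the strand of the gene only, and windows without capitals hold no such run.
Rps6 (chr4:86857348-86857377, minus strand): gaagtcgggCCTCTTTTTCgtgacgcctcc
Rps15a (chr7:118116128-118116157, minus strand): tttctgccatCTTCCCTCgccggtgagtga
Rps24 (chr14:24490668-24490697, plus strand): gctggggtCCTTCCTTgcgcgttgatatga
Rps26 (chr10:128626487-128626516, minus strand): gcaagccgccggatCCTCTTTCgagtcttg
Rpl12 (chr2:32961702-32961731, plus strand): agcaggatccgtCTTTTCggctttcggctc
Rpl10a (chr17:28328461-28328490, plus strand): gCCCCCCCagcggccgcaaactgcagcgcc
Rpl5 (chr5:107900518-107900547, plus strand): cgtcgcttgcgtgctggtggtgctacatac
Rps25 (chr9:44407704-44407733, plus strand): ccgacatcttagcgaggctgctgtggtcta
Rpsa (chr9:120127756-120127785, plus strand): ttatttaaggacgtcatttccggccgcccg

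Of the 88 genes, 64 had an entry in the RefSeq promoter table. The annotated first base was itself a C followed by at least 4 pyrimidines, alone or inside a longer run, in 14 of the 64 (21.9%), against 3.01% of the 27025 genes in the whole table. With the run allowed to begin up to 10 bases on either side, it was found in 40 genes (62.5%), against 34.4% of all genes. The letters describe these windows only, and annotated starts can lie some bases away from those used in kidney. Of the 4 genes shown for 5d post-MI, Rpl10a and Rpl12 had a run and Rpl5 and Rps25 did not. Of the 4 shown for 28d post-MI, Rps26, Rps15a and Rps24 had a run and Rpsa did not.

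Ribosomal protein genes took a small and steady part of the counts of a kidney. Their share of all counts in a kidney ranged from 1.61% to 1.91%, with 0.656% to 0.789% on small subunit genes and 0.957% to 1.12% on large subunit genes. The mean share was 1.74% ± 0.0596 (SD, n = 8) in sham, 1.77% ± 0.0794 (n = 8) 5d post-MI and 1.66% ± 0.0362 (n = 6) 28d post-MI. The lowest, median and highest kidney had 1.68%, 1.73% and 1.83% in sham, 1.65%, 1.78% and 1.91% 5d post-MI, and 1.61%, 1.66% and 1.71% 28d post-MI. The ranges of all 3 groups overlapped. These shares are of gene rows alone, and pseudogene rows, described below, took a further 0.850% to 1.04%. Small subunit counts were 0.706 ± 0.00974 times the large subunit counts in sham, 0.702 ± 0.00648 times 5d post-MI and 0.695 ± 0.0120 times 28d post-MI (SD).

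The levels of single genes spanned a wide range. Because a 3′ read is counted once per transcript end, counts were not divided by transcript length, and levels are given as CPM after normalization for library composition (TMM). Of the 88 genes, 84 had enough counts to be tested, and 61 of these averaged at least 100 CPM. The most abundant was Rplp1, an acidic protein of the ribosomal stalk, with a mean of 1076 CPM over the 22 kidneys. It was followed by Rplp0, the protein that anchors the stalk (623 CPM), and Rps20, a small subunit protein (561 CPM). The other stalk protein, Rplp2, averaged 448 CPM. This order is of gene rows alone. Rps12 averaged 91.1 CPM, but its pseudogene rows held 45316 counts over the 22 kidneys, against 5896 on the gene and 40457 on Rplp0. The lowest levels among tested genes were those of the muscle paralogue Rpl3l (3.53 CPM), Rpl22l1, the paralogue of Rpl22 (10.3 CPM), and Rpl35 (17.1 CPM), a protein near the exit of the nascent chain. The 4 untested genes were Rpl23a with 44 counts in all kidneys together, Rpl10l with 2, Rpl39l with 1 and Rps12l1 with 0.

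**Figure D1:**
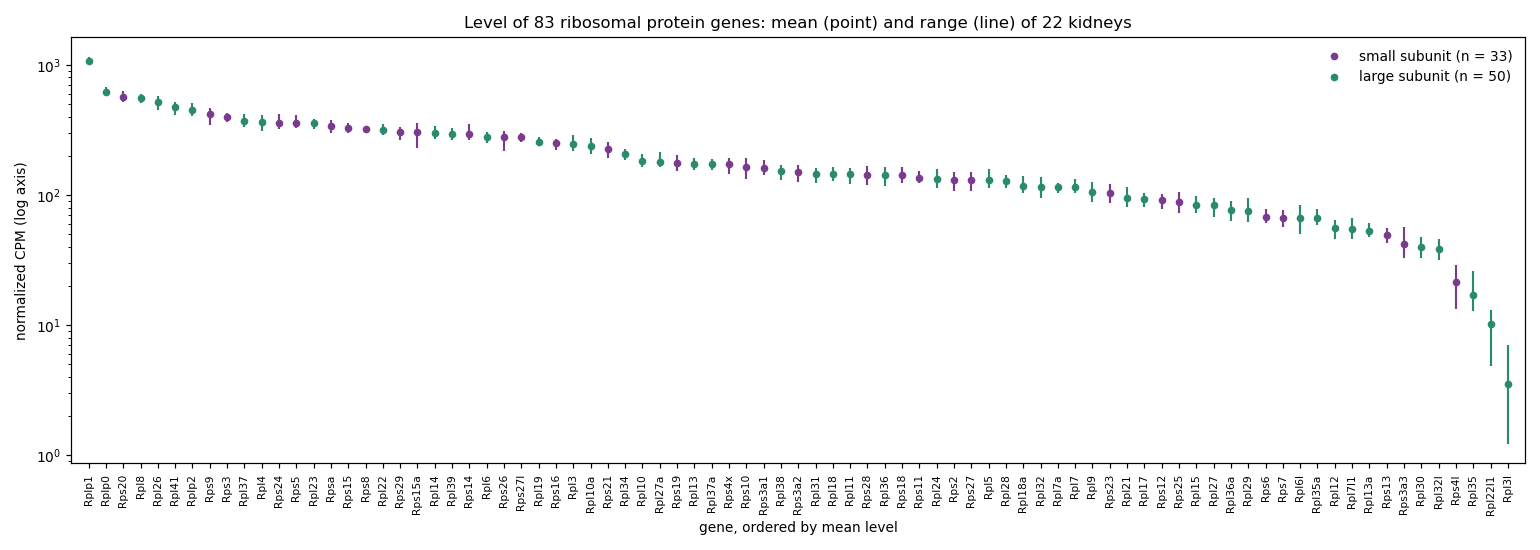
Level of 83 of the 84 tested ribosomal protein genes on a log axis of normalized CPM, as the mean (point) and the range (line) of 22 kidneys, coloured by subunit. Most lines are short beside the distance between Rplp1 at 1076 CPM and Rpl3l at 3.53 CPM.

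Members with well-known roles outside the core of the ribosome averaged between 67.9 and 399 CPM. Rpsa, which also binds laminin, averaged 342 CPM and Rps3, which also takes part in DNA repair, 399 CPM. Rps19, the gene most often mutated in Diamond-Blackfan anaemia, averaged 176 CPM. Rpl11 and Rpl5, which bind Mdm2 when ribosome assembly is disturbed, averaged 144 and 129 CPM. Rps6, the substrate of S6 kinase, averaged 67.9 CPM on its own row, but 68.9% of the counts of Rps6 and its pseudogene rows together were on the latter. This share was 65.0% for Rps19, 51.4% for Rpl5 and 41.1% for Rpsa. Rps3 and Rpl11 had no row with a -ps symbol, and copies under other symbols were not searched for.

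Among the paralogues, Rps27l, a p53-inducible relative of Rps27, exceeded Rps27 in every kidney. The ratio of their counts ranged from 1.78 to 2.67, with means of 2.14 ± 0.120 in sham, 2.13 ± 0.327 5d post-MI and 2.18 ± 0.273 28d post-MI (SD). Rpl7l1 had 0.387 to 0.591 times the counts of Rpl7. Rpl22l1 had 0.0140 to 0.0431 times the counts of Rpl22, with means of 0.0306 ± 0.00866 in sham, 0.0325 ± 0.00568 5d post-MI and 0.0368 ± 0.00652 28d post-MI. Rpl3l had 0.00454 to 0.0282 times the counts of Rpl3, on a total of 223 counts. The ranges of the 3 groups overlapped for each ratio. These ratios use gene rows alone. Of the joint counts, 52.4% of Rpl7 and 46.4% of Rpl3 were on pseudogene rows, against 0.189% of Rps27 and 0.422% of Rpl22. Rpl10l was counted in 1 kidney and Rpl39l in 1 other kidney, so both testis paralogues were at or under 3 counts, the limit that a count of 0 allows.

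A large part of the counts under ribosomal protein names was on pseudogenes. The table holds 300 pseudogene rows of ribosomal protein genes, of which 253 had a count and 297 could be assigned to one of the 88 genes by name. They took between 0.850% and 1.04% of all counts in a kidney, which is 34.1% to 36.4% of the counts of genes and pseudogene rows together. Of the 60 members with a pseudogene row and a count, 26 had more counts on those rows than on the gene, and the median member had 44.2% there. Rpl23a, a large subunit protein, was the extreme case, with 44 counts on the gene and 7796 on its 14 pseudogene rows (99.4%). Rps12 (88.5%), Rps13 (86.1%) and Rpl17 (82.9%) followed. Rplp1, Rplp0, Rpl26, Rps29 and Rpl7l1 had under 0.05% on pseudogene rows. Which transcripts the reads on these rows came from cannot be told from the table, so the level on a gene row may not be the whole level of its transcript. Only symbols with -ps were searched, so copies under other symbols or without a symbol are not included in these counts.

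The pseudogene share was compared with sequence likeness in the transcripts of GENCODE M21. For 59 members, the last 200 bases of 1 protein-coding transcript of the gene were compared with the whole sequences of all its pseudogene rows. The longest exact match over these rows had a median of 144 bases in the 26 members with over 50% on pseudogene rows. The median was 44 bases in the 33 members with 50% or less. A member with more pseudogene rows had more chances of a long match. Across these members Spearman's rho was 0.529, which is a description across genes and not a test. Rps25 went the other way, with 17929 counts on 1 pseudogene row, 5760 on the gene and a longest match of 7 bases. So did Rpl31, Rpl28, Rpl21 and Rpl5, with over 50% on pseudogene rows and longest matches of 8 to 10 bases. Ends of other transcripts of these genes were not compared.

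**Figure D2:**
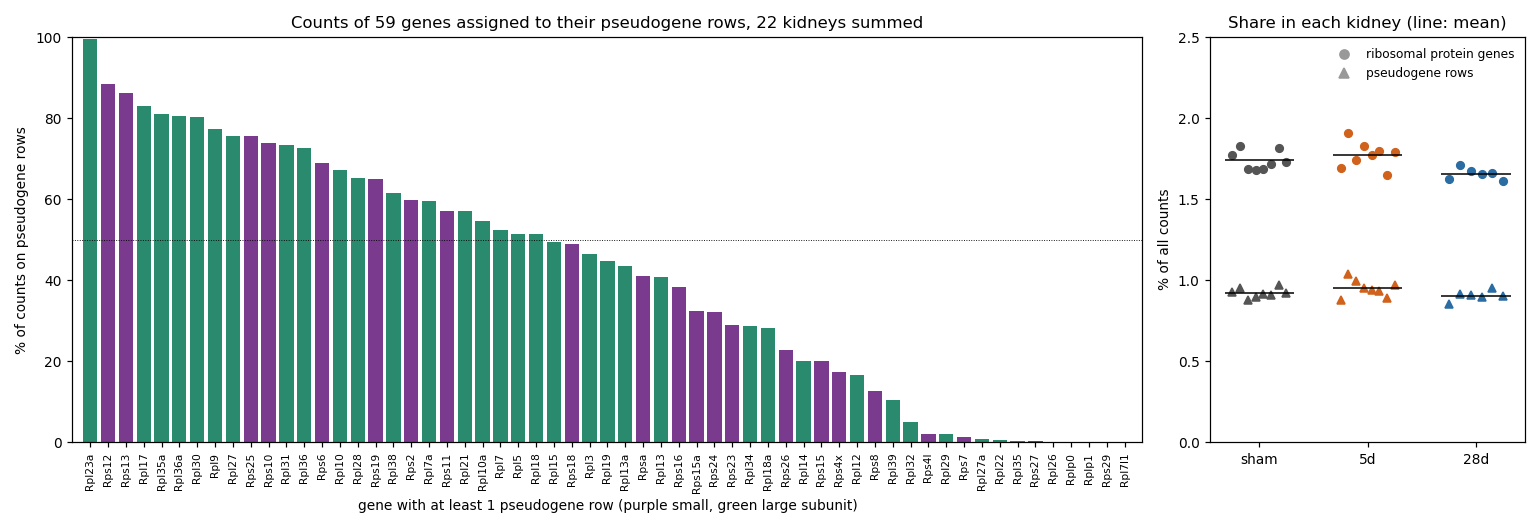
Left, for 59 of the 60 genes with a pseudogene row and a count, the percent of the counts of gene and pseudogene rows together that was on pseudogene rows, 22 kidneys summed, from 99.4% for Rpl23a down to 0; the dotted line marks 50%. Right, the percent of all counts in each kidney on ribosomal protein genes (circles) and on pseudogene rows (triangles), with the group mean as a line; the groups overlap in both.

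The first comparison asked whether ribosomal protein genes changed in the kidney 5d post-MI. No member was a differentially expressed gene (DEG): 0 of 84 passed an adjusted p of 0.05 in edgeR's quasi-likelihood test, while 9 of 12780 genes (0.0704%) did. DESeq2 and limma voom also called 0 members. At an unadjusted p under 0.05, 8 members were higher and 0 lower, against 3.92% of all genes higher and 3.97% lower. The 2 groups overlapped in every member, while 0.0391% of all genes had every 5d kidney above and 0.0156% every 5d kidney below the sham range. DESeq2 gave 7 and limma voom 9 such members, all higher. The count of 8 depended on single kidneys: it was 5 without sham kidney 1, 3 or 4 or without 5d kidney 2, 4 without 5d kidney 5 or 6, and 13 without 5d kidney 1. With the mean log2 CPM of the adipocyte markers as a covariate it was 3.

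Most members were slightly above sham 5d post-MI. The log2 fold change was above 0 in 70 of 84 members, against 50.1% of all genes, and the median was 0.04, against 0.00 for all genes. It was above 0 in 26 of 34 small subunit members (median 0.04) and in 44 of 50 large subunit members (median 0.05). Values of members within a kidney are not independent, so these counts carry no test.

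Red blood cell genes rose 5d post-MI. The 6 listed genes, 4 of them globins, summed to between 2211 and 4135 CPM in sham, between 4977 and 19118 CPM 5d post-MI, and between 1799 and 5137 CPM 28d post-MI. The 4 globin genes passed the test 5d post-MI, among them Hba-a1 with a log2 fold change of 1.50 (SE 0.25) and an adjusted p of 0.036 in edgeR. Alas2, the heme synthesis enzyme of erythroblasts, was at or below 0.301 CPM in every group mean. Reticulocytes carry ribosomal protein mRNA, and the part of red blood cell RNA in the small differences of ribosomal protein genes was not tested.

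The lowest p at 5d was that of Rpl10a, the protein of the L1 stalk of the large subunit. Its lowest, median and highest levels were 205, 224 and 243 CPM in sham and 239, 246 and 275 CPM 5d post-MI. All 8 kidneys 5d post-MI lay above the sham mean and 4 of 8 above every sham kidney, but the ranges overlapped. The log2 fold change was 0.16 (SE 0.05) with an unadjusted p of 0.00144 and an adjusted p of 0.275 in edgeR. On Rpl10a and its pseudogenes, 54.5% of counts were on pseudogene rows.

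Rpl5, the large subunit protein that carries 5S ribosomal RNA with Rpl11, ran from 114 to 137 CPM in sham (median 125) and from 120 to 157 CPM 5d post-MI (median 141). Its log2 fold change was 0.14 (SE 0.06, adjusted p = 0.517). Its partner Rpl11 had a log2 fold change of 0.03 (SE 0.06, adjusted p = 0.942). Rps25, a small subunit protein needed for some internal initiation, ran from 73.2 to 91.8 CPM in sham and from 74.9 to 106 CPM 5d post-MI (log2 fold change 0.16, SE 0.07, adjusted p = 0.564). Rpl12, at the base of the acidic stalk, ran from 49.9 to 58.6 CPM in sham and from 55.9 to 64.3 CPM 5d post-MI (log2 fold change 0.15, SE 0.06, adjusted p = 0.576). In each of these 3 genes 5 of 8 kidneys 5d post-MI exceeded every sham kidney, and the others lay inside the sham range.

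The members below sham 5d post-MI had higher p-values. Rpl3l had the lowest log2 fold change, −0.26 (SE 0.27, adjusted p = 0.878), on 1.22 to 6.06 CPM 5d post-MI and 2.55 to 7.07 CPM in sham. Rps15a had −0.07 (SE 0.08), Rpl13a −0.04 (SE 0.06) and Rps27l −0.02 (SE 0.04). For the most abundant members, Rplp1 and Rplp0, the log2 fold change was 0.00 (SE 0.04 each).

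The intervals set how large a change could have gone unseen. The 95% interval of the log2 fold change had a median half-width of 0.107 over members 5d post-MI, and the whole interval lay within 0.5 of 0 for 83 of 84 members. The exception was Rpl3l, whose interval ran from −0.81 to 0.29.

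**Figure D3:**
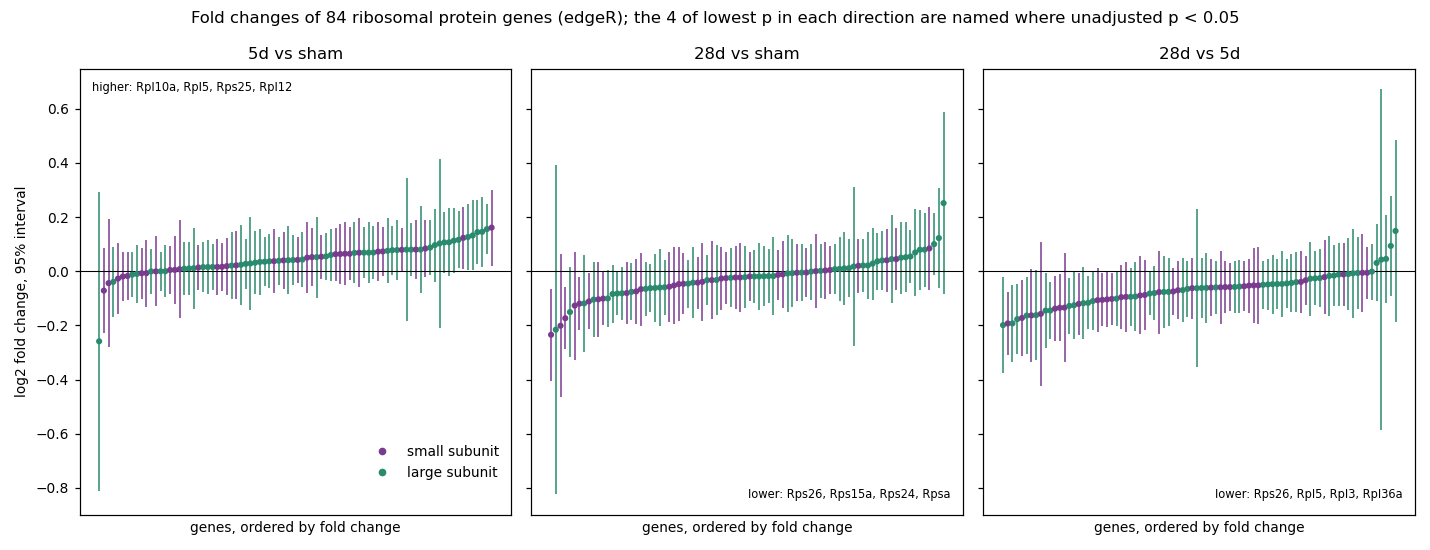
Log2 fold change of each of 84 ribosomal protein genes with its 95% interval in the 3 comparisons, ordered within each panel and coloured by subunit. Of 84 points, 70 lie above 0 for 5d against sham, 28 for 28d against sham and 5 for 28d against 5d, and none passed the adjusted threshold.

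The second comparison set kidneys 28d post-MI against sham. Again 0 of 84 members passed an adjusted p of 0.05 in edgeR, DESeq2 or limma voom, and 3 of 12780 genes (0.0235%) did in edgeR. At an unadjusted p under 0.05, 0 members were higher and 6 lower in all 3 tools, against 4.45% and 4.23% of all genes in edgeR. No member had groups that did not overlap, while 0.188% of all genes lay wholly above and 0.0704% wholly below sham. The 6 became 2 without sham kidney 2, the kidney with the most adrenal RNA, 3 without both sham kidneys whose adrenal markers summed to over 100 CPM, and 3 without 28d kidney 1. Rps15a alone changed its call with the processing: with no filter on low counts it passed with an adjusted p of 0.0223, against 0.388 with the filter.

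The log2 fold change was above 0 in 28 of 84 members, against 49.6% of all genes, with a median of −0.02. Small subunit members were above 0 in 7 of 34 (median −0.04) and large subunit members in 21 of 50 (median −0.01). Scaling by total counts in place of TMM left 13 of 84 above 0. Markers of plasma and B cells differed between the same groups: the 9 genes listed summed to 28.2 to 64.6 CPM in sham and 91.3 to 149 CPM 28d post-MI, with Mzb1 at 0 in all kidneys and 0 of 4 tested genes past the threshold. Their part in the ribosomal protein values was not tested.

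The summed adipocyte markers had a median of 1971 CPM 28d post-MI and 2647 CPM in sham, with overlapping ranges. The 10 listed genes, none at 0 in all kidneys, summed to 1955 to 3611 CPM in sham, 1571 to 3888 CPM 5d post-MI and 1285 to 2827 CPM 28d post-MI, and 0 of 9 tested passed. Pck1 took a large part of these sums, with means of 1239, 1547 and 1306 CPM in sham, 5d and 28d post-MI. Its log2 fold change for 28d against sham was 0.08 (SE 0.20). Those of the other tested genes of the list ran from −1.48 (Plin1) to −0.69 (Cidec). The sums therefore follow Pck1 more than the other listed genes, and Pck1 was also part of the covariate. The 6 brown adipocyte genes summed to 74.9 to 457 CPM in sham, 57.6 to 343 CPM 5d post-MI and 67.2 to 156 CPM 28d post-MI, and 0 of 5 tested passed. For 28d against sham, Plin1, a coat protein of lipid droplets, had a log2 fold change of −1.48 and Otop1, a proton channel of brown fat, −2.25. With the mean log2 CPM of the adipocyte markers as a covariate, 4 members rather than 6 were lower at an unadjusted p under 0.05, and 24 rather than 28 of 84 were above 0.

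Rps26, a small subunit protein at the mRNA exit channel, had the lowest p 28d post-MI. Its lowest, median and highest levels were 255, 288 and 312 CPM in sham, 259, 293 and 311 CPM 5d post-MI, and 218, 255 and 285 CPM 28d post-MI. All 6 kidneys 28d post-MI lay below the sham mean, and 3 of them below the sham range. Its log2 fold change against sham was −0.17 (SE 0.06) with an unadjusted p of 0.00416 and an adjusted p of 0.332 in edgeR.

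Rps15a had the largest decrease in log2 terms, −0.23 (SE 0.08, adjusted p = 0.388). It was also the member whose spread exceeded counting error the most: its variance within groups was 10.5 times that of counting alone, against a median of 2.26 times over members. Of the 6 kidneys 28d post-MI, 4 lay below every sham kidney. The 4 lowest values of all kidneys came from both MI groups. They were 231 CPM in 5d kidney 6, 228 in 28d kidney 1, 245 in 28d kidney 6 and 252 in 28d kidney 7. The other 18 kidneys lay between 278 and 354 CPM. The 8 pseudogene rows of Rps15a, with 32.4% of the joint counts, were not low in all of these kidneys: they summed to 133, 112, 155 and 151 CPM in the same 4, against a sham range of 127 to 157 CPM.

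Rps24, whose mutation also causes Diamond-Blackfan anaemia, ran from 345 to 417 CPM in sham and from 320 to 365 CPM 28d post-MI (log2 fold change −0.12, SE 0.05, adjusted p = 0.454). Its highest value was in sham kidney 2. Rpsa ran from 318 to 378 CPM in sham and from 300 to 338 CPM 28d post-MI (log2 fold change −0.11, SE 0.05, adjusted p = 0.538). Rplp1 ran from 1054 to 1122 CPM in sham and from 1008 to 1070 CPM 28d post-MI (log2 fold change −0.08, SE 0.04, adjusted p = 0.552). For Rplp1, 5 of 6 kidneys 28d post-MI were below every sham kidney.

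Of the members above sham 28d post-MI, Rpl22l1 had the highest log2 fold change, 0.25 (SE 0.17, adjusted p = 0.723). Its levels ran from 4.88 to 11.9 CPM in sham and from 8.15 to 13.1 CPM 28d post-MI, and 4 of 6 kidneys exceeded every sham kidney. Rpl10, a protein added last to the large subunit, had the lowest p among them, with a log2 fold change of 0.10 (SE 0.06, adjusted p = 0.640), and 165 to 185 CPM in sham and 167 to 197 CPM 28d post-MI. In order of p, Rpl22l1, Rpl6l (0.12, SE 0.09) and Rpl21 (0.08, SE 0.07) came after it.

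The interval of the log2 fold change 28d post-MI against sham had a median half-width of 0.116, and lay within 0.5 of 0 for 82 of 84 members. Rpl3l and Rpl22l1 were the exceptions, both with few counts.

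**Figure D4:**
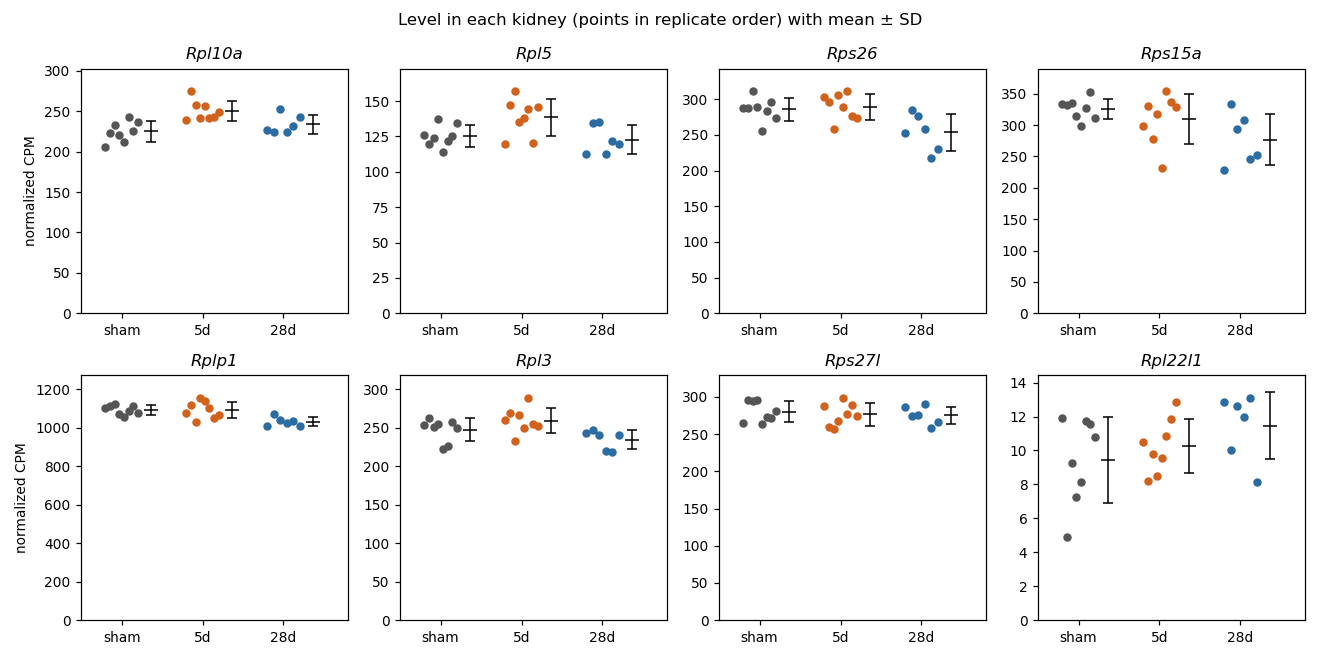
Normalized CPM of 8 genes in each kidney, with mean ± SD beside the points, on axes that start at 0. Rpl10a had a median of 224 CPM in sham and 246 CPM 5d post-MI, Rps26 medians of 288 and 255 CPM in sham and 28d post-MI, and Rps15a shows 4 low kidneys between 228 and 252 CPM.

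The third comparison, kidneys 28d against 5d post-MI, held the most members on one side. Still, 0 of 84 members passed an adjusted p of 0.05 in edgeR, DESeq2 or limma voom, while 53 of 12780 genes (0.415%) did in edgeR. At an unadjusted p under 0.05, 0 members were higher and 20 lower, against 5.03% of all genes higher and 4.01% lower. The groups overlapped in every member, while 0.25% of all genes lay wholly higher and 0.0939% wholly lower. DESeq2 gave 17 and limma voom 22, all lower. Of the 20, 12 were of the large and 8 of the small subunit. The log2 fold change was above 0 in 5 of 84 members, against 48.6% of all genes, with a median of −0.06. None of the 34 small subunit members was above 0 (median −0.08), and 5 of 50 large subunit members were (median −0.06). These counts share their kidneys with the 2 comparisons above and are not independent of them.

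The count of 20 rested on a few kidneys. It was 9 without 28d kidney 1, 10 without 28d kidney 6 and 12 without 28d kidney 7. It was 11 without 5d kidney 5 and 13 without 5d kidney 2, 6 or 7. With only the 2 groups in the fit it was 12. The number of members above 0 stayed between 4 and 12 of 84 when each kidney was left out in turn. In the same comparison 4 of 5 tested red blood cell genes fell (median −1.78 in log2 terms over the 5), and 2 of 4 tested plasma and B cell genes rose, and the part of either was not tested.

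Rps26 again had the lowest p, with a log2 fold change of −0.19 (SE 0.06, unadjusted p = 0.00167, adjusted p = 0.163 in edgeR). Rpl5 had −0.18 (SE 0.06, adjusted p = 0.312), Rpl3, a protein near the peptidyl transferase centre, −0.14 (SE 0.05, adjusted p = 0.315), and Rpl36a −0.19 (SE 0.07, adjusted p = 0.325). Rpl3 ran from 232 to 289 CPM 5d post-MI and from 219 to 246 CPM 28d post-MI, with a sham range of 223 to 263 CPM. Rpl36a ran from 70.7 to 90.5 CPM 5d post-MI and from 63.3 to 82.7 CPM 28d post-MI. With the counts of its pseudogene rows, which hold 80.4% of the joint counts, added to the gene, the log2 fold change of Rpl36a was −0.06. Rpl39, at the end of the exit tunnel, had −0.12 (SE 0.05, adjusted p = 0.433) and Rps19 −0.14 (SE 0.06, adjusted p = 0.468). The few members with values above 0 were Rpl22l1 (0.15, SE 0.17), Rpl6l (0.09, SE 0.09), Rpl32 (0.05, SE 0.08), Rpl3l (0.04, SE 0.31) and Rpl13a (0.03, SE 0.07).

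**Figure D5:**
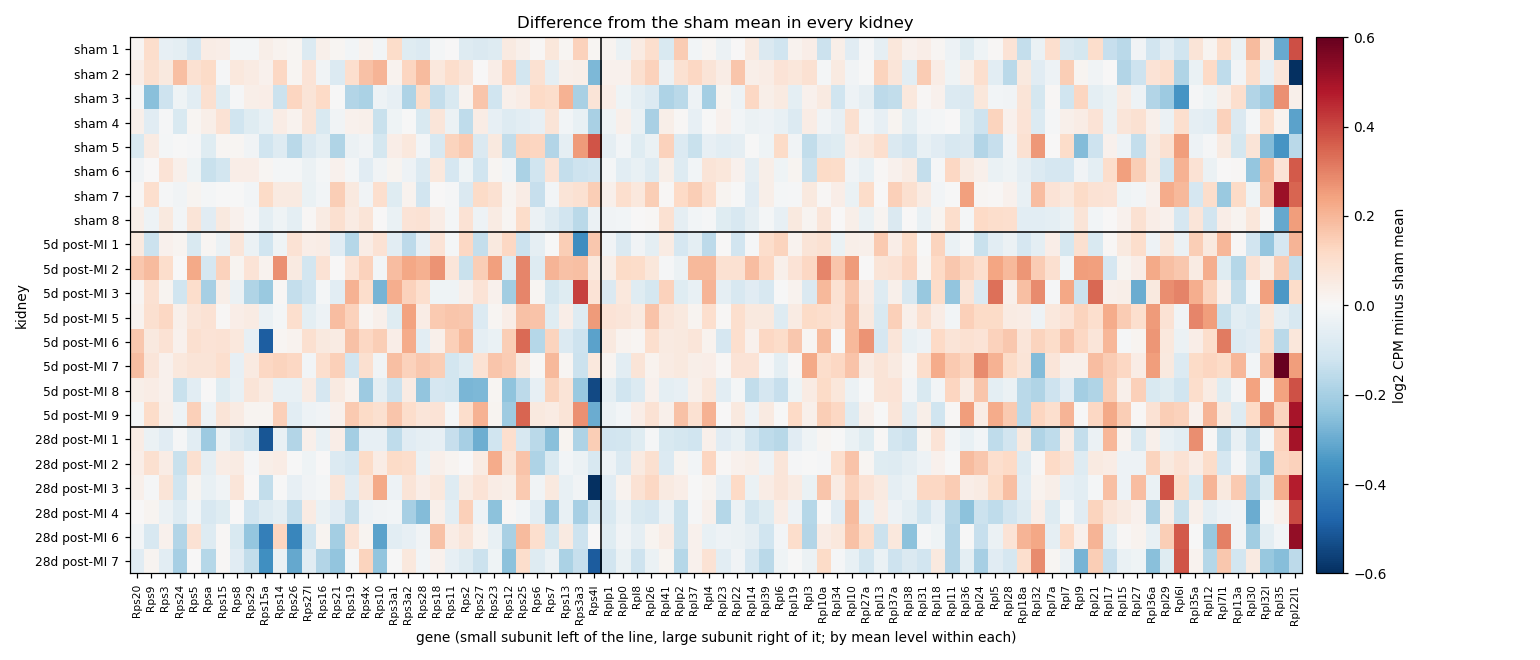
Log2 of normalized CPM minus the mean of the sham kidneys for each kidney (rows) and 82 of the 83 ribosomal protein genes of at least 10 CPM (columns), with colours limited to 0.6 on either side of 0. Rps15a stands out in 5d kidney 6 and in 28d kidneys 1, 6 and 7, with 231, 228, 245 and 252 CPM, and Rpl22l1, Rpl35 and Rps4l vary most.

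Of the 170 pseudogene rows tested, 0 passed an adjusted p of 0.05 in any of the 3 comparisons in edgeR. At an unadjusted p under 0.05, 10 were higher and 0 lower for 5d against sham, where 3.92% and 3.97% of all genes were. For 28d against sham 5 were higher and 2 lower, beside 4.45% and 4.23% of all genes, and for 28d against 5d 1 was higher and 8 lower, beside 5.03% and 4.01%. Their median log2 fold changes were 0.06, 0.01 and −0.05. When their counts were added to those of the named gene, 85 members could be tested, 0 passed, and the medians over members were 0.04, −0.01 and −0.06. The log2 fold change was then above 0 in 80, 33 and 5 of 85 members, against 70, 28 and 5 of 84 on gene rows alone. At an unadjusted p under 0.05 in edgeR, 10, 1 and 0 members were higher and 0, 4 and 17 lower.

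Ribosomal protein genes varied little between kidneys of a group. The median coefficient of variation (CV) within groups was 6.89% over 84 members and 15.8% over all genes tested, but the median member also had a higher level, 147 CPM against 21.3 CPM. Among genes within 2 times of the median member level, 46 members had a median CV of 7.17% and 1710 other genes 8.32%. In relation to counting error, the median variance was 2.26 times the counting variance for members and 1.47 times for all genes. At the matched level the order was the other way, with 2.03 times for the 46 members and 2.31 times for the 1710 other genes.

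The members partly moved together from kidney to kidney. After the group means were removed, the correlation of a member with the mean of the other members over 22 kidneys had a median of 0.393, and it was above 0.5 for 34.5% of members against 1.77% of the 12696 other genes. Rpl8, a large subunit protein, followed the others most closely (r = 0.862). In 9 members r was below 0, with Rpl35a lowest (r = −0.457), and Rps27l, Rpl7l1, Rpl22l1 and Rps6 were among them. Between single members the median r was 0.163. Members share libraries, normalization and pseudogene sequence, so these values are descriptions without a test. Over the same 22 kidneys and with group means removed, the mean over members was set against the log2 sum of each gene list. The highest r were with TOP mRNAs of other genes (0.828) and elongation factors (0.715), lists that share genes. With the red blood cell genes r was 0.681 and with 7 macrophage genes −0.527, again as a description, and the part of either was not tested. The mean over members deviated most in 5d kidney 8 (−0.0711 log2) and in 28d kidney 3 (0.0628 log2).

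Other genes of translation were read from lists written for the purpose. Of 23 tested TOP mRNAs that do not code for members (0 passed in any comparison), 20 had a log2 fold change above 0 for 5d against sham, 12 for 28d against sham and 1 for 28d against 5d, with medians of 0.06, 0.00 and −0.06. Eif4b, an initiation factor that helps the helicase Eif4a, had the lowest p, with −0.25 (SE 0.07) for 28d against 5d and an adjusted p of 0.0711 in edgeR. Eif3f, a subunit of initiation factor 3, had 0.14 (SE 0.05, adjusted p = 0.425) for 5d against sham and −0.16 (SE 0.05, adjusted p = 0.207) for 28d against 5d. Pabpc1, the poly(A) binding protein, had 0.10 (SE 0.05, adjusted p = 0.633) and −0.15 (SE 0.05, adjusted p = 0.274) in the same comparisons.

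Of 9 tested elongation factors and of 35 initiation factors, 0 passed in any comparison. Eef2, the translocase, had 0.09 (SE 0.04, adjusted p = 0.650) for 5d against sham. Initiation factors had medians of 0.02, 0.02 and 0.00 in the 3 comparisons, with 20 of 35 above 0 for 28d against 5d. Fau and Rps27a, which code for a ribosomal protein fused to a ubiquitin-like protein or to ubiquitin, had 0.07 (SE 0.05) and 0.09 (SE 0.05) for 5d against sham, and 0 passed.

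Of 45 ribosome assembly genes 0 passed in any comparison, with medians of 0.06, 0.00 and −0.03. Rrs1, an assembly factor of the large subunit, had 0.30 (SE 0.11, adjusted p = 0.451) for 5d and 0.30 (SE 0.12, adjusted p = 0.468) for 28d, both against sham. Polr1a, the largest subunit of RNA polymerase I, had −0.35 (SE 0.13, adjusted p = 0.401) for 28d against sham. Npm1, a nucleolar chaperone, had −0.21 (SE 0.09, adjusted p = 0.414) for 28d against 5d.

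Of 25 genes of mTORC1 and TOP control 0 passed. Eif4ebp1, the translational repressor that mTORC1 inactivates, had −0.33 (SE 0.13, adjusted p = 0.503) for 5d and −0.53 (SE 0.15, adjusted p = 0.231) for 28d, both against sham. Deptor, an inhibitor within mTOR complexes, had −0.26 (SE 0.08, adjusted p = 0.290) for 28d against sham. Larp1 had 0.15 (SE 0.07, adjusted p = 0.492) for 28d against 5d. Transcript levels of these genes do not measure the activity of the pathway.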

How the data were processed

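Kidneys of 24 mice were listed, and 22 were analysed (8 sham, 8 at 5d and 6 at 28d post-MI). The authors prepared 3′ end libraries (MACE-Seq) with unique molecular identifiers. The submitters' processing notes name Cutadapt, FastQC, Bowtie2, HTSeq, DESeq2 and genome build mm39, while the study's methods name mm10. The annotation and the strand setting are not given in the sources used here, and reads of a gene and its antisense partner or near-identical copies may be split. The authors deposited raw counts per Ensembl gene and a second value named TPM. The deposited TPM columns equal counts per 1000000 (CPM) of the column total within 5e-06, are not divided by length, and were not tested. Of 48 value columns, 4 were not used because 1 sample name occurs in 2 columns, which leaves out 1 kidney at 5d and 1 at 28d. Symbols came from an Ensembl table for 51948 of 56941 identifiers.

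Here the deposited counts were normalized by TMM and fitted with edgeR 4.0.16 (R 4.3.3, quasi-likelihood test with robust dispersion, 1 model over the 3 groups, two-sided, Benjamini-Hochberg adjustment over 12780 genes kept by filterByExpr at a minimum count of 10, of 30116 genes with a count). DESeq2 1.42.0 and limma voom 3.58.1 were alternatives. The pipeline was tested on simulated data. The threshold was an adjusted p of 0.05, and unadjusted p-values are given where stated. Counts per kidney ranged from 2280618 to 3786275, and intervals cover these kidneys only. Within groups, 71 pairs of kidneys differed by 1.69 to 7.21 times counting noise (chi-square per degree of freedom), so each was counted as 1 sample. The study's methods describe sequencing of kidneys from separate mice. The labels give no batch or date.

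The members and gene lists were chosen with earlier results of these data known. Named genes were those called (0), the 4 of lowest p in each direction and comparison, the 3 highest and 3 lowest tested by level, a fixed list of 21 members (Rpsa, Rplp0, Rplp1, Rplp2, Rps6, Rps3, Rps19, Rpl5, Rpl11, Rps27, Rps27l, Rpl22, Rpl22l1, Rpl3, Rpl3l, Rpl10, Rpl10l, Rpl39, Rpl39l, Rpl7 and Rpl7l1), and up to 4 of lowest p per pathway list. Members named for pseudogene share, spread or correlation, and Rps15a in its low kidneys, were chosen after their values were seen. Sequences are from RefSeq (GRCm38.p6), and gene types and transcripts from GENCODE M21 (GRCm38). No coordinate of the deposited data was used. Results that need certain genes, among them 1 other way to count the share of ribosomal protein genes, are not reported here.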

Additional observations from a re-analysis of the deposited data

Results flagged for a closer look

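In 105 sets of 6 or 8 kidneys (each named gene in each group, and the shares of counts), 6 held 1 kidney far from the others by Dixon's test at 95%, a rate that chance alone gives in about 1 of 20 sets. Rpl13a, a large subunit protein, was high in 5d kidney 7 (61.1 CPM, the others 47.2 to 53.4) and in 28d kidney 3 (59.4 CPM, the others 49.2 to 53.0). Rpl22 was high in sham kidney 2 (349 CPM, the others 291 to 317), and so was Rps24 (417 CPM, the others 345 to 375). Sham kidney 2 also held the most adrenal cortex RNA (976 CPM summed over 7 genes), whose part was not tested. Rpl3l was high in sham kidney 3 (7.07 CPM, the others 2.55 to 4.41), on a total of 223 counts over all kidneys. Rps20 was low in sham kidney 5 (515 CPM, the others 541 to 564).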

How the results depend on the processing

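In all 37 alternatives tried for each comparison, the count of members called stayed at 0 for 5d against sham and for 28d against 5d, and the sign of the median log2 fold change was kept in the 3 comparisons. For 28d against sham, the fit with no filter on low counts called 1 member, Rps15a (log2 fold change −0.24, adjusted p = 0.0223), and the cause was not tested; over its other alternatives its adjusted p ranged from 0.200 to 0.715. Total counts in place of TMM gave a median of −0.061 for 28d against sham and 16 members lower at an unadjusted p under 0.05, where TMM gave a median of −0.02 and 6 members. Leaving out each kidney in turn gave medians from 0.03 to 0.06 (5d against sham), −0.04 to −0.01 (28d against sham) and −0.08 to −0.05 (28d against 5d), 0 calls in each, and mean shares of counts of 1.73% to 1.75% in sham, 1.75% to 1.79% 5d post-MI and 1.64% to 1.66% 28d post-MI. Without mitochondrial genes in the total the mean shares were 1.99%, 2.03% and 1.90%, and with TMM-normalized library size the share 28d post-MI was 1.70%. Kidneys of different groups share replicate numbers in the titles, but same-numbered kidneys did not deviate together (correlations −0.127 to 0.089). With the replicate number as a block, 0 members were called in each comparison, with medians of 0.04, −0.03 and −0.07. At an unadjusted p under 0.05 the block gave 4 members for 5d against sham, 3 for 28d against sham and 12 for 28d against 5d. 2 alternatives were chosen after seeing the data: adding pseudogene counts to the named gene, which took Rpl36a from −0.19 to −0.06 for 28d against 5d, and leaving out the members typed as processed pseudogenes. At this depth, members under 20 CPM (Rpl35, Rpl22l1 and Rpl3l) had intervals too wide to exclude a change of 0.3 on the log2 scale. Intervals of some members with more counts also reached past 0.3, such as that of Rps15a for 28d against sham (−0.40 to −0.06). The whole interval lay within 0.32 of 0 for 81 of 84 members (5d against sham), 79 (28d against sham) and 75 (28d against 5d).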
